A study of Saccharomyces cerevisiae with 4 samples.

Results

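The small subunit processome is the particle that builds the small ribosomal subunit of Saccharomyces cerevisiae. The genes described here were chosen by name, as the rows of the deposited table whose standard name stood in a list of 44 processome and early 40S assembly factors. The names matched 43 of the 6782 gene rows. DBP4 was the name without a match: the table lists that gene as HCA4, and it is given beside the members but not counted with them. All 43 members passed the filter on low values, a mean of at least 1 CPM over the 4 libraries.

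Yeast of the W303 background carried 6xIAPP, integrated in single copy at LEU2 and switched on by an estradiol-inducible promoter. IAPP is islet amyloid polypeptide, a pancreatic hormone that forms amyloid. All 4 cultures held the construct and stayed in log phase: 2 uninduced cultures received DMSO and 2 induced cultures received 100 nM estradiol, each for 6 h. No library with estradiol but without the construct was analysed here, so the inducer and IAPP expression cannot be told apart, and whether the strain was a single clone is not given in the sources used here.

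In background terms, the processome assembles in the nucleolus on the nascent transcript of the ribosomal DNA. The U3 small nucleolar RNA, carried by a box C/D ribonucleoprotein, pairs with the 5′ part of that transcript. The UTP-A, UTP-B, UTP-C and Mpp10 complexes help to fold the transcript, which is cut so that the 18S rRNA is released for the 40S subunit. In yeast the genes of these factors belong to the ribosome biogenesis regulon, which is known to follow nutrient supply and growth rate, and which often carries the PAC and RRPE promoter elements.

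Processome mRNAs were lower in the induced cultures, by amounts that differed widely between genes. Levels are normalized CPM, reads per gene scaled by the authors to library size, and reads recovered from them summed to between 10397606 and 15582338 per library. Added over the 43 members, the level was 3532 and 3832 CPM in the uninduced libraries and 1843 and 1815 CPM in the induced libraries. A normalized CPM is relative to the other reads of its library, though not a plain share of them. Less RNA per cell, a larger total of other RNA and fewer cells with the RNA therefore cannot be told apart. In limma, fitted over 6037 genes on log2(CPM + 1) with Benjamini-Hochberg adjustment and a call at adjusted p under 0.05, 41 of the 43 members (95.3%) fell and 0 rose. Over all genes tested 37.0% were called lower, in a table where most genes changed. With libraries scaled to their column sums, which moved the median of all genes to 0.12 on the log2 scale, 37 members were called lower and 0 higher, against 29.4% of all genes called lower. Tested against a 1.2-fold change, 31 members were called lower, against 23.2% of all genes. A fall of at least 2-fold was called for 19 members (44.2%), against 7.22% of all genes. On the authors' scaling both induced libraries lay below both uninduced libraries in 43 of 43 members, against 43.1% of all genes. UTP25 and RCL1, which did not pass the test, were among them. Scaled to the column sums, UTP25 changed by 0.0423 and RCL1 by 0.0047, so their separation does not hold there. The median log2 fold change, induced minus uninduced, was -0.88 for the members and 0.00 for all genes. By the statistics of the authors' deposited table, 32 of the 43 members (74.4%) were lower at an adjusted p under 0.05 and 0 were higher, against 21.6% of the same 6037 genes. The 9 members called lower in limma but not there were UTP6, EMG1, RRP9, UTP18, UTP22, RRP7, UTP7, SOF1 and UTP5.

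**Figure D1:**
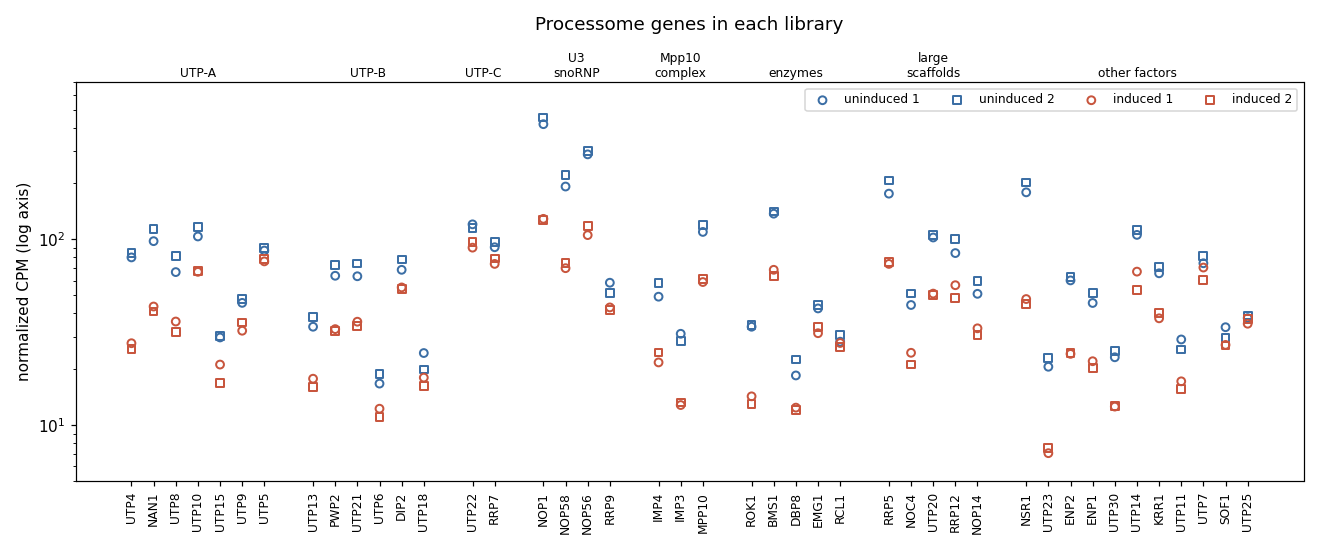
Normalized CPM (log axis) of each of the 43 processome genes in the 2 uninduced libraries (blue) and the 2 induced libraries (red), arranged by role and, within a role, by change. The gap between blue and red is widest for NSR1, UTP4 and NOP1 and nearly closed for UTP25 and RCL1.

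The spread among the members was larger than the spread between replicates. Their log2 fold changes had an SD of 0.47, against 0.73 over all genes tested, and ran from -2.02 in NSR1 to -0.08 in UTP25. The log2 difference between paired libraries had a median of 0.15 (uninduced) and 0.10 (induced) over the members and never exceeded 0.33. Among all genes ranked by fold change, 22 members stood in the lowest 10%. The position of the members' median was the 9.66th percentile of all genes. Members lay on 14 chromosomes, none overlapped another annotated coding gene and none had an intron in its coding sequence. Coding length, from 552 bases in IMP3 to 7482 bases in UTP20, ranked the changes hardly at all (Spearman rho 0.02, n = 43 genes of the same 4 libraries, a description only).

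**Figure D2:**
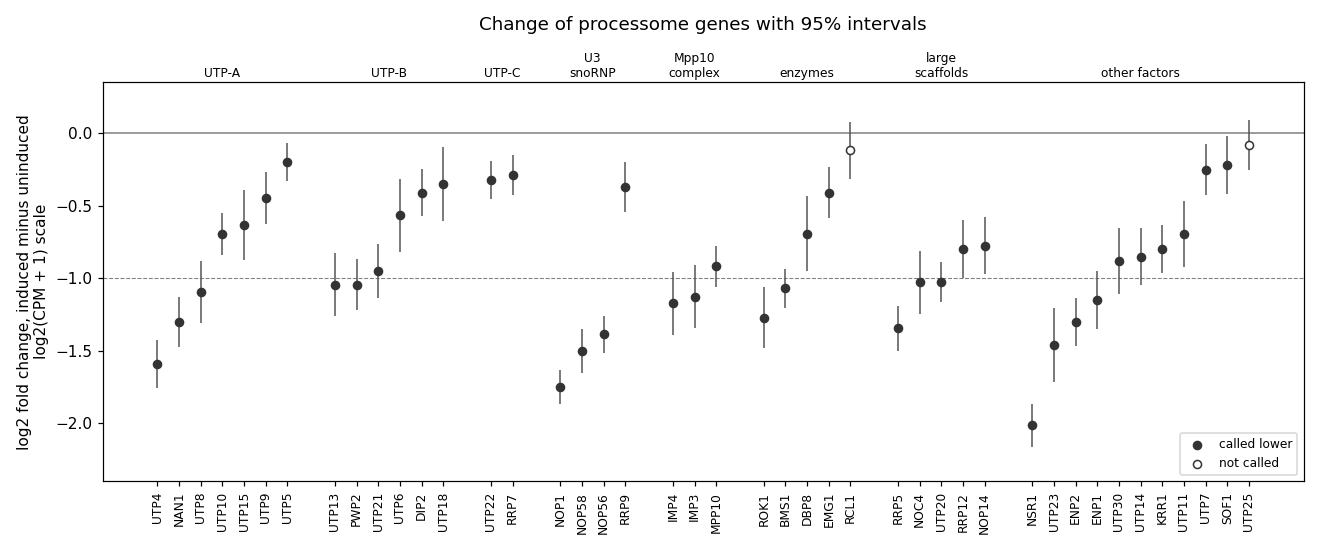
Log2 fold change (induced minus uninduced, log2(CPM + 1) scale) of each member with its 95% interval from limma; filled points were called lower, open points were not called, and the dashed line marks a 2-fold fall. Within UTP-A the values run from -1.59 (UTP4) to -0.20 (UTP5), and among the U3 proteins RRP9 (-0.37) stands apart from the other 3.

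Upstream sequence is shown for 6 members that span this range: NSR1 and NOP1 fell most, UTP4 and UTP5 are the extremes of a shared complex, and RCL1 and UTP25 did not pass the test. The windows reach from 300 to 51 bases before the start codon, 5′ to 3′ on the gene's own strand, in the RefSeq R64 genome, which is of strain S288C and not W303. Capitals mark PAC cores (GATGAG or its reverse complement CTCATC) and RRPE cores (AAAATTTT, the same on both strands).
NSR1 (chrVII:807707-807956, minus strand): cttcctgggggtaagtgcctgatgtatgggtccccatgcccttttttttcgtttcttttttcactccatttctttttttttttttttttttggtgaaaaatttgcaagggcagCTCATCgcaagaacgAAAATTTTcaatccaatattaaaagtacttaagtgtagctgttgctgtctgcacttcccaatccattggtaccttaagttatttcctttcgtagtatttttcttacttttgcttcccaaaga
NOP1 (chrIV:427064-427313, plus strand): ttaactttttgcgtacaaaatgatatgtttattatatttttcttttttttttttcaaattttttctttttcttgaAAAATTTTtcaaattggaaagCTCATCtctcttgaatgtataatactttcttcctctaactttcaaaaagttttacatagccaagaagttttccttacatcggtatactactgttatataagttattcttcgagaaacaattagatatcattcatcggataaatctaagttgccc
UTP4 (chrIV:1116814-1117063, minus strand): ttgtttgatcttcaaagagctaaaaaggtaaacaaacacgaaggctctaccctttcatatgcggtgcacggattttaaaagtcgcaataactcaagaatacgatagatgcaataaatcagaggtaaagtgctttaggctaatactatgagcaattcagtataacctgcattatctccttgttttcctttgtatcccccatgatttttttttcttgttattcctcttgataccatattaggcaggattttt
UTP5 (chrIV:1267171-1267420, plus strand): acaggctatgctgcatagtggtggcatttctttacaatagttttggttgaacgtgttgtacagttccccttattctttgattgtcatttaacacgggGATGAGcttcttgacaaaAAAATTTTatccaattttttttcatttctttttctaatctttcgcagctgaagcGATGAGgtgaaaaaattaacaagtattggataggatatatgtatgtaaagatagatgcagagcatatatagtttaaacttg
RCL1 (chrXV:307638-307887, plus strand): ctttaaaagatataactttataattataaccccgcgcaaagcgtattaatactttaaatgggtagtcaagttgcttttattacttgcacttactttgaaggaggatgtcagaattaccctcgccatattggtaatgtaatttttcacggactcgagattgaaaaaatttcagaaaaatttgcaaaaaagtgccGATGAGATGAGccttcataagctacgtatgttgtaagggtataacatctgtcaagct
UTP25 (chrIX:193246-193495, minus strand): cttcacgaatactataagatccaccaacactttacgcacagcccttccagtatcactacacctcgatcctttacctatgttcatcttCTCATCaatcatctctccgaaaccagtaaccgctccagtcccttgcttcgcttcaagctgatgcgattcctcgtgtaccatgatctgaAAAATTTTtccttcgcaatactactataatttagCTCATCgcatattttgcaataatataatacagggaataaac

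The NSR1 and NOP1 windows each hold 1 PAC core and 1 RRPE core. In NSR1 the PAC core begins 187 and the RRPE core 172 bases before the start codon. UTP5 and UTP25 carry the same elements, with 2 PAC cores and 1 RRPE core each, and their log2 fold changes were -0.20 and -0.08. RCL1 has 2 overlapping PAC cores and no RRPE core, and the UTP4 window, above a gene that changed by -1.59, has neither string of letters. Presence of the elements did not order these 6 genes by their change. The genes were picked by that change, so this is a description and does not show whether the elements go with it.

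PAC and RRPE cores were common upstream of the members. PAC, which is bound by the repressors Dot6 and Tod6, was found in 37 of 43 windows (86.0%), against 17.7% of the 5968 windows of all coding genes. RRPE, which is bound by Stb3, was found in 32 (74.4%), against 8.78%. A window with both was found in 30 members (69.8%), against 4.14% of all genes. PAC matches began a median of 116 bases before the start codon (57 matches) and RRPE matches a median of 133.5 bases before it (40 matches). Some windows reach into the coding sequence of the next gene upstream. The PAC cores 292 bases before UTP14 and 259 bases before DIP2 lie there, beyond gaps of 240 and 223 bases. UTP14 and DIP2 each have another PAC core closer to the start codon, at 93 and 127 bases. The 30 members with both elements had a median log2 fold change of -1.03, the 7 with PAC alone -0.37, the 2 with RRPE alone (RRP7, UTP15) -0.46 and the 4 with neither (UTP4, UTP30, EMG1, UTP22) -0.65. Among the 217 tested genes outside the list whose windows hold both, 154 (71.0%) were called lower, with a median of -0.66. These 217 include genes of related lists given below: 35 of 60S assembly, 16 further processome factors, 9 late 40S genes and 8 RNA polymerase I genes. Genes outside ribosome assembly were not taken separately. Of the 4409 tested genes outside the list with neither, 1494 (33.9%) were called lower, with a median of 0.03. These are matches of letters, not mapped binding sites.

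**Figure D3:**
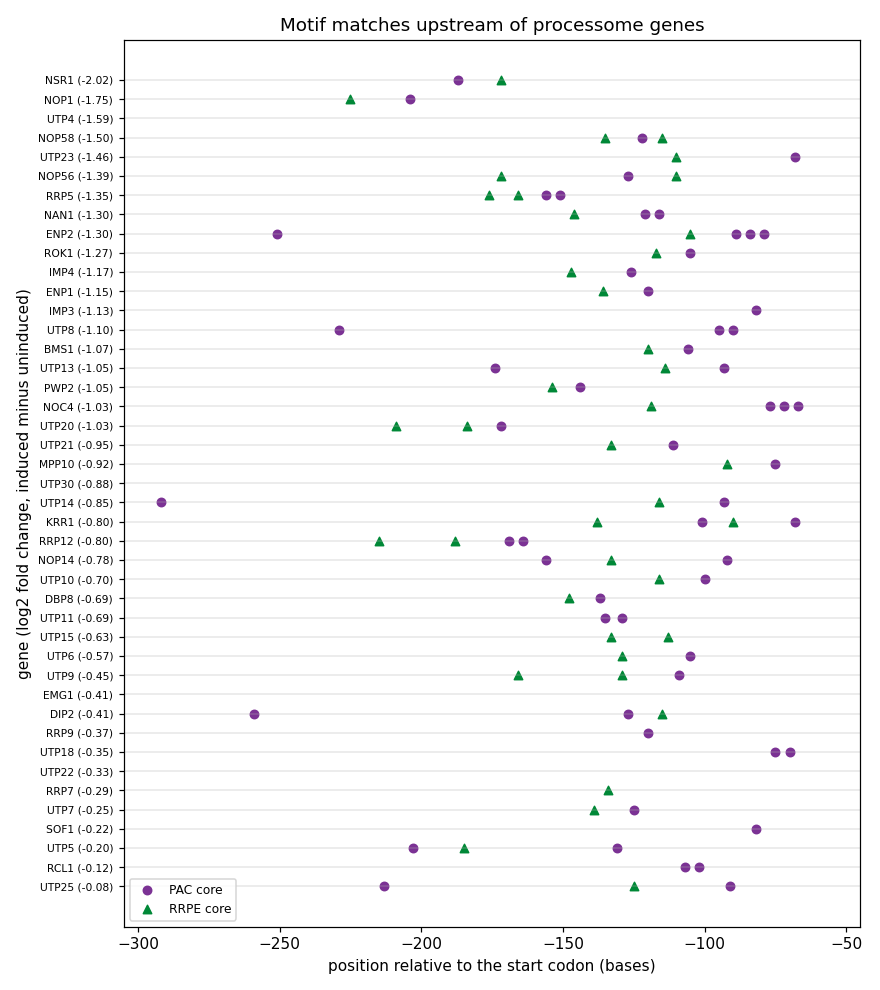
Position of each PAC core (circles) and RRPE core (triangles) relative to the start codon, in bases, for the 43 members ordered by log2 fold change (in brackets). The middle 50% of matches lie 151 to 91 bases (PAC) and 166 to 116 bases (RRPE) before the start codon, and UTP4, UTP30, EMG1 and UTP22 show none.

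UTP-A binds the nascent transcript first, at its 5′ external spacer, and in yeast several of its subunits have been linked to transcription of the ribosomal DNA. All 7 of its members fell, with a median of -0.70, but over a wide range. UTP4 (chromosome IV, 1114433 to 1116763, R64), a beta-propeller subunit, was at 80.0 and 84.9 CPM in the uninduced libraries and 27.6 and 25.7 CPM in the induced libraries. This is a change of -1.59 ± 0.08 (SE, adjusted p = 1.39e-09). UTP5 (chromosome IV, 1267471 to 1269402), another propeller subunit, was at 87.1 and 89.98 CPM uninduced and 76.2 and 78.1 CPM induced. The UTP5 libraries do not overlap between groups, yet the change was -0.20 ± 0.06 (adjusted p = 0.0104). The UTP4 level per kb of coding length was 0.761 and 0.782 of that of UTP5 in uninduced cultures, and 0.30 and 0.273 of it after induction. Their 95% intervals, -1.76 to -1.43 and -0.33 to -0.07, do not overlap; the pair was picked as the extremes of the complex, so this is a description. NAN1 (Utp17) changed by -1.304 and UTP8 by -1.097. UTP10, a long HEAT-repeat subunit, changed by -0.70, UTP15 by -0.63 and UTP9 by -0.45. The UTP5 call was lost without induced library 1 (adjusted p = 0.0677) in DESeq2 (adjusted p = 0.0628) and when libraries were scaled to their sums (-0.07, adjusted p = 0.299); across all alternatives its adjusted p lay between 0.00595 and 1.

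UTP-B, a second early complex that includes tandem propeller proteins, also fell in all 6 members, with a median of -0.76. UTP13 was at 33.9 and 38.1 CPM uninduced and 17.8 and 16.0 CPM induced, a change of -1.05 ± 0.10 (adjusted p = 8.54e-07). PWP2 (Utp1) went from 63.7 and 72.7 CPM to 32.9 and 32.1 CPM, also -1.05 ± 0.08. After induction these genes were at 46.9% and 47.6% of their uninduced means. UTP21 changed by -0.95, UTP6 by -0.57 and DIP2 (Utp12) by -0.41. UTP18, which recruits the exosome helicase Mtr4, was at 24.4 and 19.9 CPM uninduced and 18.0 and 16.3 CPM induced. The 2 uninduced UTP18 libraries differ by more than the lower of them differs from induced library 1. UTP18 was called lower (-0.35 ± 0.12, adjusted p = 0.0166), but not without uninduced library 1 (-0.21, adjusted p = 0.158) or induced library 2 (adjusted p = 0.125); across all alternatives its adjusted p lay between 0.000988 and 0.42.

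UTP-C joins the particle later and contains casein kinase 2. Its members here, UTP22 and RRP7, had the smallest median change of the 8 roles (-0.31). UTP22 was at 121 and 115 CPM uninduced and 90.3 and 97.2 CPM induced (-0.33 ± 0.06, adjusted p = 0.000341). RRP7 went from 90.7 and 96.5 CPM to 73.8 and 79.0 CPM (-0.29 ± 0.06, adjusted p = 0.00131). In the authors' deposited statistics UTP22 and RRP7 were not called lower (adjusted p = 0.0978 and 0.15). They kept 79.7% and 81.6% of the uninduced mean, and neither passed a test against a change of 1.2-fold (adjusted p = 0.302 and 0.579; ranges over their alternatives 1.65e-05 to 0.302 and 0.000215 to 0.579). The 4 casein kinase 2 genes, which are not members, had a median of -0.08: CKB2, a regulatory subunit, fell (-0.31 ± 0.06) and CKA2, a catalytic subunit, was at 199 CPM uninduced and 201 CPM induced (0.02 ± 0.06).

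The proteins of the U3 ribonucleoprotein included some of the largest falls, and 3 of the 4 were among the 4 highest members per kb of coding length in uninduced cultures. NOP1, fibrillarin, the methyltransferase of box C/D particles, was at 417 and 453 CPM uninduced and 129 and 128 CPM induced. It fell by 1.75 on the log2 scale (SE 0.05, adjusted p = 3.71e-11), to 29.5% of its uninduced mean. NOP58 and NOP56, the paired core proteins of the same particles, changed by -1.50 and -1.39. RRP9, the protein specific to U3 among these 4, was at 58.5 and 51.6 CPM uninduced and 43.0 and 41.6 CPM induced (-0.37 ± 0.08, adjusted p = 0.0011). The 95% intervals were -1.87 to -1.64 for NOP1 and -0.54 to -0.20 for RRP9, which are the extremes of this group by choice, so the gap between them is a description. SNU13, the other shared protein and not a member, changed by -1.47. The U3 RNA itself has no poly(A) tail and is poorly sampled by an mRNA kit. SNR17A, looked up after its values were seen, read 5.47 and 15.5 CPM uninduced and 21.8 and 5.40 CPM induced, with the groups overlapping.

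The Mpp10 complex, which helps U3 pair with the transcript, fell by similar amounts in its 3 members. IMP4 went from 49.2 and 58.2 CPM to 21.8 and 24.6 CPM (-1.17 ± 0.10, adjusted p = 2.57e-07). MPP10 went from 109.7 and 119.6 CPM to 59.0 and 61.3 CPM (-0.92 ± 0.06, adjusted p = 4.7e-08). IMP3 lay between them at -1.13, and the 95% intervals of IMP4 and MPP10 overlap.

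**Figure D4:**
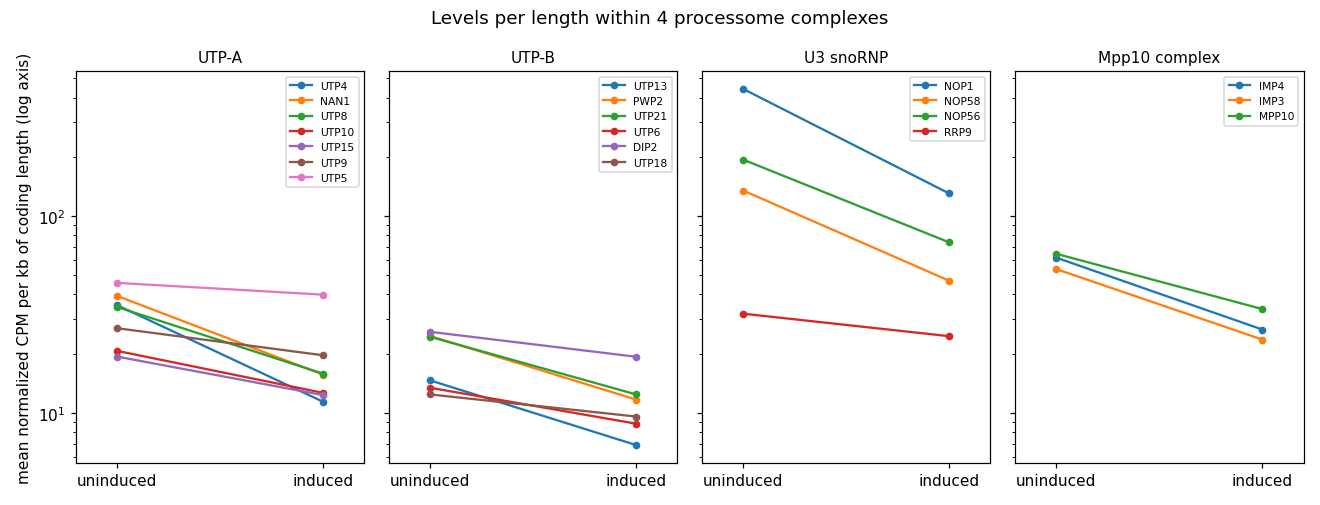
Mean normalized CPM per kb of coding length (log axis) in uninduced and induced cultures, with 1 line per gene, for 4 complexes. Lines of the Mpp10 complex run nearly parallel, whereas UTP4 crosses below the other UTP-A genes and the U3 proteins draw closer together.

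Per kb of coding length, the relative levels of subunits within a complex shifted. In UTP-A the highest level per kb was 2.37 times the lowest in uninduced cultures and 3.49 times in induced cultures. UTP4 went from 35.4 to 11.4 CPM per kb and became the lowest of the 7, while UTP5 was the highest in both groups (45.8 and 39.9 CPM per kb). In UTP-B the ratio went from 2.08 to 2.81. The U3 proteins drew together, from a ratio of 13.8 to 5.31, as NOP1 went from 442 to 130.4 CPM per kb and RRP9 from 32.0 to 24.6 CPM per kb. In the Mpp10 complex the ratio was 1.196 uninduced and 1.43 induced. Over all members a higher uninduced level per kb went with a larger fall (Spearman rho -0.36, n = 43 genes, which share the 4 libraries and the uninduced values on both sides, a description only).

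Among the enzymes, 4 of 5 fell and RCL1 did not pass the test. ROK1, a DEAD-box RNA helicase, was at 33.9 and 34.8 CPM uninduced and 14.3 and 12.98 CPM induced (-1.27 ± 0.10, adjusted p = 1.05e-07). BMS1, the GTPase of the particle, went from 138 and 141 CPM to 68.6 and 63.3 CPM (-1.07 ± 0.06, adjusted p = 6.75e-09). Its binding partner RCL1, a cyclase-like protein, was at 28.1 and 30.7 CPM uninduced and 27.7 and 26.3 CPM induced. The RCL1 change was -0.12 ± 0.09 (adjusted p = 0.258), with a 95% interval of -0.31 to 0.08, and its sign turned with total-count scaling (0.005). DBP8, another DEAD-box helicase, changed by -0.69 and EMG1, a methyltransferase of the 18S rRNA, by -0.41. HCA4, the gene also named DBP4 and itself a DEAD-box helicase, was at 67.1 and 69.4 CPM uninduced and 28.01 and 25.4 CPM induced (-1.32 ± 0.08).

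All 5 large scaffold proteins fell, from -1.35 to -0.78, with a median of -1.03. RRP5, an RNA-binding protein that serves both ribosomal subunits, was at 176 and 208 CPM uninduced and 73.8 and 75.5 CPM induced (-1.35 ± 0.07, adjusted p = 3.57e-09). UTP20, a HEAT-repeat protein and the longest coding sequence of the list, went from 102 and 106 CPM to 51.1 and 50.1 CPM (-1.03 ± 0.06, adjusted p = 1.13e-08). NOP14 and NOC4 form a dimer: NOP14 was at 50.9 and 59.8 CPM uninduced and 33.2 and 30.5 CPM induced (-0.78 ± 0.09, adjusted p = 5.88e-06), and NOC4 changed by -1.03. RRP12, another HEAT-repeat protein, changed by -0.80.

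The remaining 11 factors held both ends of the list, with 10 lower and a median of -0.85. NSR1 (chromosome VII, 806412 to 807656), the yeast nucleolin, was at 179 and 203 CPM uninduced and 47.7 and 45.1 CPM induced. It had the largest fall of the 43 members, 2.02 on the log2 scale (SE 0.07, adjusted p = 8.9e-11), to 24.3% of its uninduced mean. UTP23, a PIN-domain protein, went from 20.6 and 23.0 CPM to 7.06 and 7.52 CPM (-1.46). ENP2 changed by -1.302, ENP1, which stays with the particle into the cytoplasm, by -1.15, and UTP30 by -0.88. UTP14, the activator of the helicase Ecm16, changed by -0.85, the KH-domain protein KRR1 by -0.80 and UTP11 by -0.69. UTP25 was at 37.7 and 39.0 CPM uninduced and 35.2 and 37.3 CPM induced. Its change was -0.08 ± 0.08 (adjusted p = 0.378), with a 95% interval of -0.25 to 0.09, and its sign turned with total-count scaling (0.04). The propeller proteins UTP7 and SOF1 were called lower by small amounts (-0.25, adjusted p = 0.0141, and -0.22, adjusted p = 0.0473). UTP7 lost its call without uninduced library 2 (-0.19) or induced library 2 (-0.14). It also lost the call with no filter on low values (adjusted p = 0.0751), total-count scaling (adjusted p = 0.172) and against a 1.2-fold change (adjusted p = 0.866). SOF1 lost its call without uninduced library 1 (-0.13), induced library 1 (-0.23) or induced library 2 (-0.22). Its call was also lost with no filter (adjusted p = 0.0923), total-count scaling (adjusted p = 0.363) and quantile normalization (adjusted p = 0.105). The same held in DESeq2 (adjusted p = 0.161) and against a 1.2-fold change (adjusted p = 0.992).

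Of 25 further processome factors that are not members, 20 fell, 2 rose and 3 were not called, with a median of -0.95. PXR1 and SQS1, a pair of G-patch cofactors of the helicase Prp43, were the extremes. PXR1 was at 144 and 149 CPM uninduced and 26.6 and 31.8 CPM induced (-2.29 ± 0.08), and SQS1 was at 71.4 and 63.1 CPM uninduced and 98.6 and 98.7 CPM induced (0.55 ± 0.07). SAS10 (Utp3) changed by -1.20, whereas BUD21 (Utp16), at 38.0 CPM uninduced and 39.0 CPM induced, did not pass (0.04, adjusted p = 0.686). Genes of the later, largely cytoplasmic 40S steps were more mixed, with 8 of 14 lower, 2 higher and a median of -0.53. LTV1, an export and assembly factor, changed by -1.32 and HRR25, the kinase that acts on Ltv1, by 0.28.

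Beside related lists the members were intermediate. The 47 genes of 60S subunit assembly had 45 lower, 0 higher and a median of -1.15, from HAS1 at -1.86 to DBP7 at -0.21. The 56 genes of 40S ribosomal proteins had 56 lower and a median of -1.06, with an SD of 0.17 between genes against 0.47 for the processome members. These range from RPS28B at -1.37 to RPS10B at -0.64, and reads of near-identical paralogs among them are split in an unknown way. In the other lists the SD was 0.14 for casein kinase 2, 0.40 for 60S assembly and 0.53 for late 40S genes. It was 0.57 for the nuclear exosome, 0.62 for the further processome factors and 0.87 for RNA polymerase I. Over all genes tested the SD was 0.73, larger than that of the members. A window with both PAC and RRPE cores, found in 69.8% of the members, was also found in 74.5% of the 60S assembly genes, 64.3% of the late 40S genes, 64% of the further processome factors and 53.3% of the RNA polymerase I genes. It was found in 7.14% of the nuclear exosome genes, 0% of the 40S ribosomal protein genes and 0% of the casein kinase 2 genes. RNA polymerase I genes split, with 9 of 15 lower and 4 higher (median -0.39), from RPA43 at -1.53 to RRN10 at 0.89. Of 14 nuclear exosome genes 8 were lower and 2 higher (median -0.48), with MTR4 at -1.48 and RRP43 at 0.53. Differences between the lists were not tested.

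**Figure D5:**
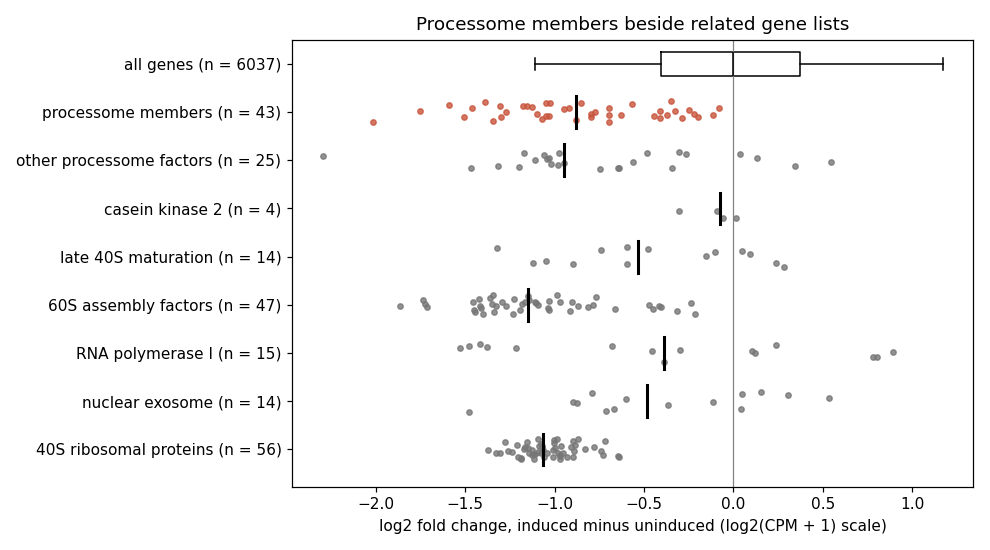
Log2 fold change (induced minus uninduced) of each gene in the processome list (red) and in 7 related lists (grey), with black bars at the medians; for all 6037 genes tested the box spans the quartiles and the whiskers the 5th to 95th percentiles. Ribosomal protein genes form a tight band near -1.06, and the processome members spread from -2.02 to -0.08.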

How the data were processed

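RNA of 4 yeast libraries was extracted with hot acid phenol and sequenced after a stranded mRNA preparation (TruSeq) on a HiSeq instrument, per the labels' protocols. The authors deposited 1 table of normalized signal, given per the file headers as CPM, with their log2 fold change, p-value and adjusted p-value. The submitters' processing notes list TopHat2 2.0.13, HTSeq and edgeR and the builds sacCer3 and R64, with no roles; for strand setting, annotation release and filters nothing is given in the sources used, and 4 emptied lines of the table were not analysed here. Columns summed to 945865 to 1041888, and each value was a whole multiple of the worth of 1 read (tolerance 0.001), which gave recovered reads for 100% of values; in uninduced library 2 the step, 0.1002 CPM, is close to a round fraction, so the evidence there is weaker. A floor of 3 reads corresponds to 0.193 to 0.301 CPM, far below every member.

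limma 3.58.1 (R 4.3.3) was fitted to log2(CPM + 1) of all genes with a mean of at least 1 CPM, with group as the only term, a variance trend, two-sided tests and Benjamini-Hochberg adjustment. On this scale the change of low genes is understated. The planned test for CPM was used, although the unit turned out to be a scaled CPM whose columns differ in their sum. Alternatives to the fit included edgeR 4.0.16 and DESeq2 1.42.0 on recovered reads. Only the main fit and these tools were tested on simulated reads. The simulation changed far fewer genes than were called here, in balanced directions, so it does not cover a broad shift like that of these data. The design text calls the cultures biological replicates; paired libraries differed beyond counting noise (chi-square per degree of freedom 4.69 and 5.03). Members were grouped by role from general knowledge. In each role the members with the lowest and highest change are given in every library, with NOP1, MPP10, PWP2, BMS1, UTP20, RRP5 and NSR1; UTP23, HCA4 and the other lists' genes SNU13, SAS10 and BUD21 were added after their values were seen. The members and lists were chosen with earlier results of these data known. Windows and coding lengths were read from RefSeq R64, the build of the files.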

Additional observations from a re-analysis of the deposited data

How the results depend on the processing

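Most of the 43 members were called lower in each of the 14 alternatives run, and 41 stayed below 0 in all of them. The share of all genes called lower ran from 23.2% (tested against a 1.2-fold change) to 38.0% (with the replicate number as a block). Between 31 members (tested against a 1.2-fold change) and 41 were called lower and 0 higher, and 31 members were called lower in each of the 14. With all 4 libraries kept, the count of falls of at least 2-fold ran from 13 (total-count scaling) to 19. The share of all genes with such a fall was 7.22% in the main fit and was not taken under the alternatives. Total-count scaling moved the median of all genes to 0.12 and that of the members from -0.88 to -0.76 (replicate SD 0.09), and turned RCL1 (0.0047) and UTP25 (0.0423) to values above 0, uncalled; the cause was not tested. Of 266 values of the 19 members that the naming rule takes, 251 kept direction and side of the threshold, 13 lost the call, 2 reversed and 0 gained one. Without 1 library, 38 to 40 members were called lower. With the replicate number as a block (replicate block) 41 members were called lower, at the same median of -0.88. The within-pair differences correlated weakly between the groups, at -0.136 over 6037 genes, and whether replicate numbers are crossed was not tested. A crossed replicate block, added after seeing the data, also called 41 members. With 2 libraries per group, changes of about 0.2 on the log2 scale are at the limit of what was called.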
